A study of Mus musculus with 4 samples.

Results

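The 10 genes described here encode the muscle side of the neuromuscular junction: the acetylcholine receptor subunits Chrna1, Chrnb1, Chrnd, Chrne and Chrng, the proteins that gather them under the nerve ending, Musk, Lrp4, Dok7 and Rapsn, and the adhesion molecule Ncam1. They were taken by name, from a list made with earlier results of these data known, and each was read at every probe set that carried its symbol and no other. This gave 19 of the 45101 probe sets on the array, with 7 for Ncam1, 3 for Chrng, 2 for Dok7 and 1 for each other gene. The brightest probe set of each gene, by its mean over the 4 arrays, stands for the gene, and all 10 lay above the filter that left 15102 genes for testing.

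The tissue was the tibialis cranialis, a fast muscle at the front of the lower leg, from 8 male C57Bl/6 mice aged 22 weeks. All mice, and so both groups, had eaten a high fat diet since 8 weeks of age. At 12 weeks AAV8 ProMyo was injected into the muscle on 1 side and saline on the opposite side, with tissue collected 10 weeks after that. AAV8 is an adeno-associated viral vector, and ProMyo stands for the myostatin propeptide, a natural antagonist of this brake on muscle growth. RNA of 4 animals was mixed for each array, so that each group had 2 arrays, from animals 1-4 and animals 5-8. The control leg received saline and no vector, and the promoter that drives the propeptide is not given in the sources used here. Differences between the legs can therefore belong to the propeptide, to the vector or to both, which cannot be told apart, and no limb without an injection was measured.

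At the neuromuscular junction a motor nerve releases acetylcholine onto a small patch of the muscle fibre, where receptors are packed at high density. Nerve-derived agrin binds Lrp4, which switches on the kinase Musk with the help of the adaptor Dok7, and the scaffold Rapsn then ties receptors into clusters. The receptor is a ring of α, β and δ subunits with a γ subunit in fetal muscle, which an ε subunit replaces after birth. When a fibre loses its nerve, the γ, α, β and δ subunits and Ncam1 are made again along the whole fibre, and this makes these genes a common readout of innervation. Only a few nuclei of an adult fibre lie under the synapse, so transcripts made only there are rare in RNA of a whole muscle. In such RNA fewer cells or nuclei of a kind and less RNA in each cannot be told apart.

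The arrays carried strong fibre signals, with Acta1, Myh4, Tnnt3 and Pvalb between 11.69 and 12.27 on the log2 scale of the deposited values. Levels of different probe sets are not compared, since each binds with its own strength. Bacillus control probe sets marked the background, with maxima of 0.57 to 0.99 on the 4 arrays. The saline 5-8 array stood apart, with hybridization controls at 11.1 against 10.1 to 10.2 on the others and an upper quartile of 2.97 against 3.15 to 3.20. The log2 difference of 3' and 5' signal of Gapdh, a sign of RNA integrity, was 0.58 and 0.74 on the ProMyo arrays and 0.90 and 0.81 on the saline arrays. The same measure for Actb was 1.64 and 1.72 on the ProMyo arrays and 1.96 and 1.80 on the saline arrays. Both measures were higher on both saline arrays than on either ProMyo array. The part of RNA integrity in the differences of the 10 genes was not tested. Many probe sets had exactly the same value on several arrays, 14.5% on at least 2 of them, which the median polish step of RMA can produce. Both ProMyo arrays were tied for 5.62% of probe sets and both saline arrays for 0.679%, and the cause of the ties was not tested.

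None of the 10 genes passed limma's test of ProMyo against saline over all 15102 genes (adjusted p between 0.822 and 0.998). The same test called 0 genes in all, or 0%, and its unadjusted p was under 0.05 for 874 genes, or 5.79%, 2 of which were Rapsn and Ncam1. This count was 442 without the ProMyo 1-4 array, 353 without ProMyo 5-8, 1599 without saline 1-4 and 1021 without saline 5-8. Counted without a test, Ncam1 was at least 1.5-fold higher in ProMyo muscle within both pools of animals, as were 1.03% of all genes, and Rapsn was at least 1.5-fold lower, as were 0.563%. In all, 156 genes were so higher and 85 so lower, or 123 and 112 after quantile normalization. With the remaining arrays compared, the counts were 262 higher and 348 lower without the saline 5-8 array, 684 and 411 without saline 1-4, 334 and 194 without ProMyo 1-4, and 254 and 167 without ProMyo 5-8. Both ProMyo arrays lay above both saline arrays for Ncam1 and Chrna1, where 17.8% of all genes did so, and below them for Rapsn, where 15.7% did. With 1 to 2 genes in each of these counts, the list as a whole cannot be set apart from the background. The median difference of the 10 genes was -0.02, against 0.01 for all genes.

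**Figure D1:**
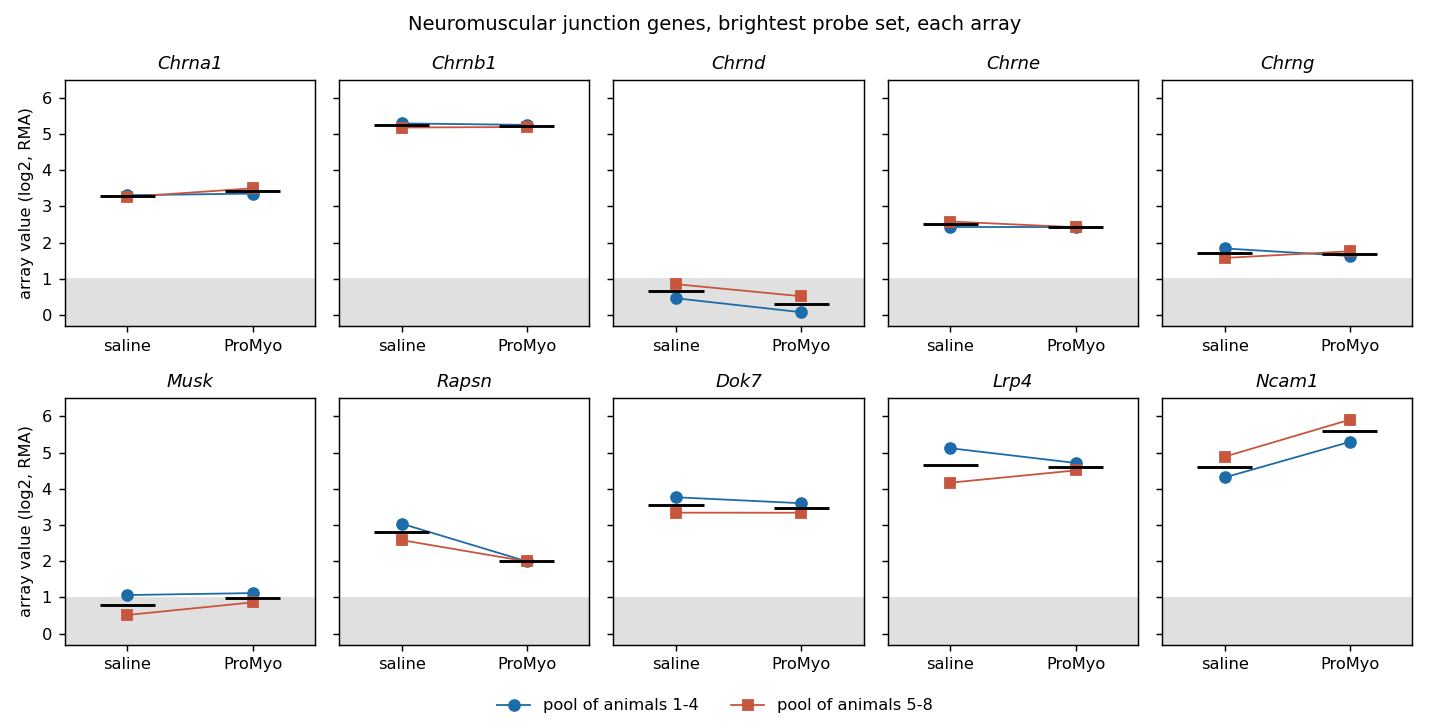
Values of the brightest probe set of each gene (log2, RMA) on the 2 saline and 2 ProMyo arrays, with a line joining both legs of a pool, a black bar at each group mean and grey shading up to the highest Bacillus control (0.99). Ncam1 was higher and Rapsn lower on both ProMyo arrays, and Chrnd lay inside the shading on all 4 arrays.

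The receptor subunits present in every receptor gave flat or weak signals. Chrna1 encodes the α subunit, which carries the acetylcholine binding sites and is present as a pair. It read 3.36 and 3.50 on the ProMyo arrays (pools 1-4 and 5-8) and 3.31 and 3.26 on the saline arrays. The groups did not overlap, but the gap of 0.04 between the nearest arrays was small. The difference was 0.14 ± 0.16 (log2 ± SE, n = 2 pools per group), with a 95% interval of -0.26 to 0.55 (limma, adjusted p = 0.906). Chrnb1, the β subunit, read 5.25 and 5.19 with ProMyo against 5.29 and 5.18 with saline. Each pool kept its level in both legs, so that the groups overlapped fully. The difference was -0.01 ± 0.16, with a 95% interval of -0.41 to 0.39 (limma, adjusted p = 0.997). Chrnd, the δ subunit, read 0.08 and 0.52 with ProMyo against 0.47 and 0.86 with saline. No array lay above its own highest Bacillus control, so its probe set was not above background in either group, and no fold is given for it.

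The fetal and adult subunits were compared because their exchange marks the state of the synapse. The γ gene Chrng and the ε gene Chrne also differ in the DNA before their starts, and these stretches are shown because they carry the letters bound by different families of factors in textbook accounts. The 250 bases before the RefSeq start are given 5′ to 3′ on the gene's own strand in the GRCm38.p6 build. Chrng lies at chr1:87205561-87205810 on the plus strand and Chrne at chr11:70619195-70619444 on the minus strand. Capitals mark each E-box, CANNTG, the letters read by MyoD and myogenin, and each N-box, CCGGAA, the letters read by ETS factors such as GABP at synaptic nuclei.
Chrng: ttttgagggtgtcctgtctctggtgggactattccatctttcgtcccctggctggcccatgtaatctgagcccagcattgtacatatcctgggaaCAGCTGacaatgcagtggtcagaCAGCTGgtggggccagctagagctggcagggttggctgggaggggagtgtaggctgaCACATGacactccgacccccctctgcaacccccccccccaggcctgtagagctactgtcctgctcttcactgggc
Chrne: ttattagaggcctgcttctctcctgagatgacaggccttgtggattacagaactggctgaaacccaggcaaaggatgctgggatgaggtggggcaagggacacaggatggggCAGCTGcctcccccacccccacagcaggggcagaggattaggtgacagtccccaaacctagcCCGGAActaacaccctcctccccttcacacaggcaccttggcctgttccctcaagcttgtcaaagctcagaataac
Both strands were searched, and no E-box overlapped an N-box. The Chrng window held 3 E-boxes, whose first bases lay 155, 132 and 75 bases before the start, and no N-box letters. The Chrne window held 1 E-box at 138 bases and 1 N-box at 76 bases before the start. Of 32851 windows of 250 bases, 66.2% held an E-box and 12% an N-box, so that an E-box by itself is common. RefSeq windows were matched for 6 of the 10 genes, and the Chrna1, Chrnb1 and Musk windows held 3 E-boxes each and no N-box. Dok7 had a pair of windows, with 1 and 0 E-boxes and no N-box. A match of letters is a description and does not show a bound site.

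Neither subunit differed between the legs beyond the spread of the arrays. Chrng read 1.63 and 1.76 on the ProMyo arrays and 1.84 and 1.58 on the saline arrays, so the groups overlapped and the pools differed in opposite directions, by -0.21 and 0.18. The mean difference was -0.01 ± 0.18, with a 95% interval of -0.46 to 0.44 (limma, adjusted p = 0.998). The other probe sets of Chrng were not above the Bacillus controls on any array. Chrne read 2.43 on both ProMyo arrays and on the saline 1-4 array, a tie of 3 values, and 2.59 on the saline 5-8 array. Its difference of -0.08 ± 0.16 (95% interval -0.49 to 0.33; limma, adjusted p = 0.955) came from that 1 array, and without it the difference was 0. As a measure of fetal against adult subunit within each array, the value of Chrng minus that of Chrne was -0.79 and -0.66 with ProMyo against -0.59 and -1.01 with saline. Only its change between arrays can be read, since the offset of both probe sets is arbitrary. It was -0.73 ± 0.09 with ProMyo and -0.80 ± 0.30 with saline (SD, n = 2), a difference of 0.07, with -0.21 in pool 1-4 and 0.34 in pool 5-8. This difference was 0.28 without the saline 1-4 array, -0.14 without saline 5-8, 0.13 without ProMyo 1-4 and 0.0014 without ProMyo 5-8. Both ProMyo values lay between the saline values. An exact permutation test of 2 against 2 arrays cannot give a two-sided p below 0.333, so none was made.

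The transcription factors that read these letters are named here for their role and were not picked by size. Myod1 was at 4.33 and 4.19 in ProMyo muscle and at 5.39 and 3.98 in saline muscle, with the high value on the saline 1-4 array. Myog stayed near the background, at 0.84 and 0.89 against 1.17 and 0.80. For both genes the pools differed in opposite directions. Gabpa and Gabpb1, the GABP subunits, stood at small differences of -0.16 and -0.11 with the same sign in both pools, and the groups overlapped for Gabpa but not for Gabpb1. None of the 4 passed the test in limma.

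The genes of the agrin receptor pathway also gave small differences. Lrp4, the receptor for agrin, read 4.71 and 4.51 with ProMyo against 5.12 and 4.17 with saline. The saline arrays were the highest and the lowest of the 4, and the pools differed by -0.41 and 0.34. The mean difference was -0.03 ± 0.34, with a wide 95% interval of -0.90 to 0.83 (limma, adjusted p = 0.994). It became 0.44 when the saline 1-4 array was left out and -0.51 when the saline 5-8 array was. Musk, the kinase that Lrp4 activates, read 1.12 and 0.86 with ProMyo against 1.07 and 0.52 with saline. The saline 5-8 value was not above the Bacillus controls of that array, and the groups overlapped. The difference was 0.20 ± 0.24, with a 95% interval of -0.42 to 0.82 (limma, adjusted p = 0.910), and -0.07 without the saline 5-8 array. Dok7, the adaptor of Musk, read 3.60 and 3.34 with ProMyo against 3.77 and 3.34 with saline. Pool 5-8 read alike in both legs, and the difference was -0.08 ± 0.22 (95% interval -0.64 to 0.47; limma, adjusted p = 0.970). The second probe set of Dok7 was dim, with a difference of -0.02.

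Rapsn, the scaffold that binds receptors directly, was the member with the lowest difference. It read 1.99 on both ProMyo arrays, an exact tie, and 3.04 and 2.58 on the saline arrays. Both saline arrays were above both ProMyo arrays, by 0.59 for the nearest values. The difference was -0.82 ± 0.21, which put saline muscle 1.76-fold above ProMyo muscle, with a 95% interval of -1.34 to -0.29 (limma, adjusted p = 0.822). It ranked 51 from the lowest among 15102 genes. The pools differed by -1.04 and -0.588, and the second of these only just passed the 1.5-fold limit, a log2 difference of 0.585. With the arrays centred on their medians, Rapsn no longer met it. Rapsn had 1 probe set, so no second reading of the gene was at hand. Because of the tie the ProMyo SD is 0, and the standard error rests on the saline pools and on the spread that limma takes from all genes. Among all genes tested, 3.73% had the same value on both ProMyo arrays.

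Ncam1, a cell adhesion molecule found on nerve endings, terminal Schwann cells, satellite cells and denervated fibres, had the highest difference of the 10 genes at its brightest probe set. This probe set read 5.29 and 5.91 with ProMyo against 4.31 and 4.89 with saline. In both groups pool 5-8 was the higher one, and within the pools the legs differed by 0.98 and 1.02. The difference was 1.00 ± 0.30, or 2.00-fold, with a 95% interval of 0.23 to 1.77 (limma, adjusted p = 0.822), and it ranked 60 from the highest among 15102 genes. It was 1.29 without the saline 5-8 array. Without the ProMyo 5-8 array it was 0.70 and without the saline 1-4 array 0.72, and in both cases Ncam1 no longer met the 1.5-fold limit in every comparison of arrays.

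Other probe sets of Ncam1 went the opposite way. The second brightest, listed under the same sequence record as the brightest, read 2.64 and 2.55 in ProMyo muscle and 3.16 on both saline arrays, a tie. Its difference was -0.56, which put saline muscle 1.48-fold above ProMyo muscle, with no overlap of the groups. The next in brightness read 0.94 and 0.63 against 1.68 and 1.12, a difference of -0.62. A dimmer one read 0.76 and 0.91 against 1.07 and 1.23, a difference of -0.32. These 3 probe sets and the brightest were above the Bacillus controls on all 4 arrays, and in all 4 of them the groups did not overlap. When limma was run on every probe set, the 4 had adjusted p values of 0.809 to 0.811. Another probe set differed by 1.01 in pool 1-4 and by -0.12 in pool 5-8, and its saline 1-4 value of 0.30 was within the background. The remaining probe sets of Ncam1 were not above background, and 1 of them had the same value on all 4 arrays. The mean over the probe sets of Ncam1 above the filter gave a difference of -0.01, so the direction for this gene depends on the probe set. NCAM1 is made in several splice forms with different C termini, but which of them each probe set reads was not analysed.

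**Figure D2:**
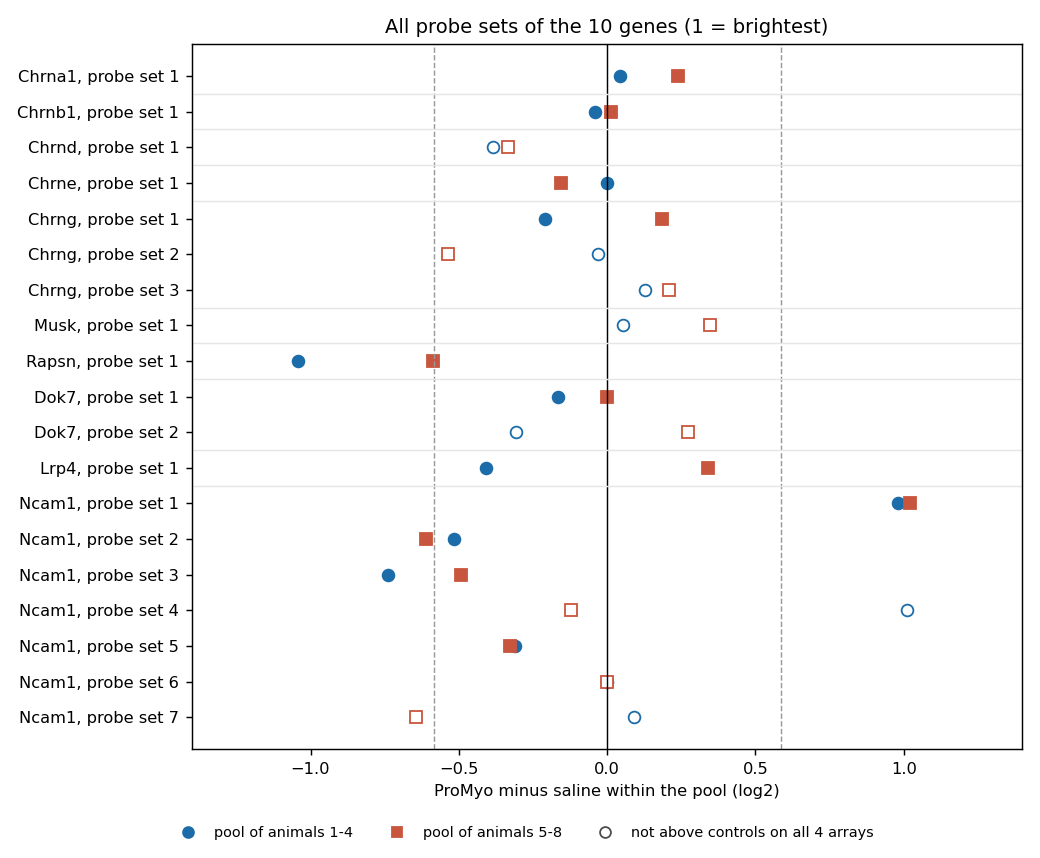
Difference of ProMyo minus saline (log2) within pool 1-4 (circles) and pool 5-8 (squares) for all 19 probe sets of the 10 genes, numbered from the brightest in each gene, with dashed lines at 1.5-fold and open symbols where fewer than 4 arrays were above the Bacillus controls. Both pools of the brightest Ncam1 probe set lie near 1, and those of numbers 2, 3 and 5 lie between -0.74 and -0.31.

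Such disagreement was also counted among the genes with large differences. This count was made after the Ncam1 values were seen. Of the 241 genes at least 1.5-fold apart in both pools, 68 had another probe set above the Bacillus controls on all arrays. In 19 of these 68, or 27.9%, another such probe set had the opposite sign in both pools, as in Ncam1. In 25 of 68, or 36.8%, another had the same sign in both pools, and a gene can count under both. In 1 of 68, or 1.47%, another probe set was at least 1.5-fold the same way in both pools. The same shares over genes not picked by their fold were not counted, so these describe the 68 genes only.

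**Figure D3:**
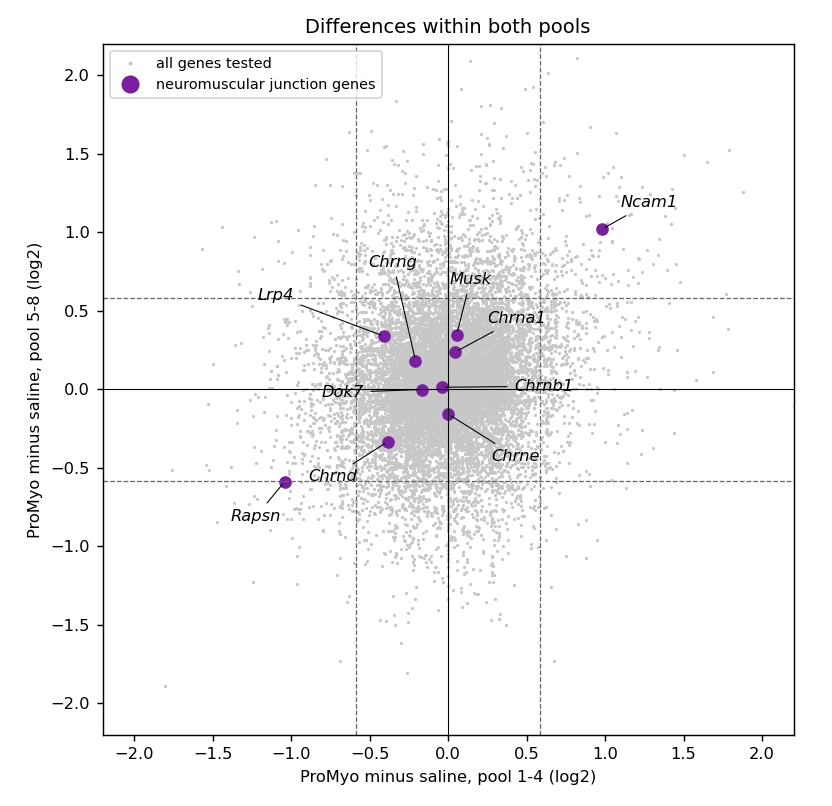
Difference of ProMyo minus saline (log2) in pool 1-4 (x axis) and pool 5-8 (y axis) for all 15102 genes tested (grey) and the 10 neuromuscular junction genes (purple), with dashed lines at 1.5-fold. Ncam1 lies past the lines at the upper right, among 156 genes, and Rapsn at the lower left, among 85. The other 8 of the 10 genes lie in neither corner.

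The other genes of the junction were read from 5 lists that cover anchoring and matrix, neuregulin signalling and synaptic transcription, receptor glycosylation, denervation and the nerve ending. None of their measured genes passed limma's test (adjusted p from 0.822). Among 26 measured genes of end-plate formation and anchoring, the median difference was -0.02, with 2 genes above and 5 below in both ProMyo arrays, against 17.8% and 15.7% of all genes. Sntb1, the β1 syntrophin of the dystrophin complex, read 4.44 and 4.47 with ProMyo against 5.01 and 5.26 with saline. Its difference of -0.68 ± 0.17 was shared in sign by the next 3 probe sets in brightness, each lower in ProMyo muscle in both pools. They gave smaller differences, of -0.25, -0.47 and -0.35. The 2 dim ones, each above background on 2 arrays, stood at 0.18 and -0.19. Col4a5, a basement membrane collagen chain, was dim, at a difference of -0.40, and its other probe set differed by 0.16 and -0.52 in the pools. Lama4, a laminin chain of the synaptic basement membrane, stood at 0.41 ± 0.20, with 0.12 in pool 1-4 and 0.69 in pool 5-8. Agrn and Ache, the genes of agrin and of the esterase that breaks down acetylcholine, each stood at -0.10, and Utrn, the synaptic relative of dystrophin, at -0.01.

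Neuregulin signalling and synaptic transcription had a median difference of -0.03 over 11 measured genes, with 2 above and 2 below in both ProMyo arrays, where 17.8% and 15.7% of all genes lay. Erbb3, a neuregulin receptor of muscle and Schwann cells, read 3.36 and 3.58 with ProMyo against 3.12 and 3.17 with saline, a difference of 0.33 ± 0.17. Dach2, a repressor of Myog that innervated muscle keeps active, stood at 0.20 ± 0.18. Its other probe set, above background on all arrays, differed by -0.05 in pool 1-4 and 1.15 in pool 5-8. Erbb4 was within the background on all arrays. The 5 genes of receptor glycosylation, in which mutations cause myasthenic syndromes, had a median of 0.13. Gmppb, which makes GDP-mannose, was the furthest at 0.696 ± 0.275, with 0.28 in pool 1-4 and 1.11 in pool 5-8, where its saline value was within the background. Alg2, a mannosyltransferase, stood at 0.13.

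Genes known to be raised by denervation did not share a direction. Of 11 measured genes, 4 were above and 3 below in both ProMyo arrays, where 17.8% and 15.7% of all genes lay, and the median difference was -0.05. At least 1.5-fold in both pools, 2 were higher, Gadd45a and Mybph, and 1 lower, Ankrd1. Of all genes, 1.03% were so higher and 0.563% so lower. The list was made with earlier results of these data known. Gadd45a, a stress gene that denervated muscle makes in large amounts, read 5.35 on both ProMyo arrays and 4.50 and 4.55 on the saline arrays. Its difference was 0.82 ± 0.15, or 1.77-fold, at least 1.5-fold in both pools, and the arrays of each group lay close together. Mybph, a myosin-binding protein, read 1.99 and 1.83 against 1.30 and 1.07, a difference of 0.72 ± 0.18. Ankrd1, a stretch and injury gene of the sarcomere, went the other way, at 4.27 and 4.68 with ProMyo against 5.25 and 5.44 with saline. Its difference was -0.87 ± 0.21, while its dimmer probe set differed by 0.04 and 0.62 in the pools. Runx1, a factor that protects denervated muscle, stood at 0.23, and the ubiquitin ligases Fbxo32 and Trim63 at 0.13 and -0.19. Of the nerve ending, 4 of 9 genes with a probe set were above the filter and none was above background on all arrays. Chat, which makes acetylcholine, read 1.09 and 1.61 against 0.81 and 0.98, and 3 of these 4 values were above background. Its difference was 0.45, while Snap25, Syt2 and Syt1, of the vesicle release machinery, stood at -0.26, -0.24 and -0.14, and the median of the list was -0.19. Syt2 was above background on 1 array only, and its pools differed in opposite directions, by 0.12 and -0.60. The other Syt1 probe set above the filter stood at 0.37, with opposite signs in the pools.

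**Figure D4:**
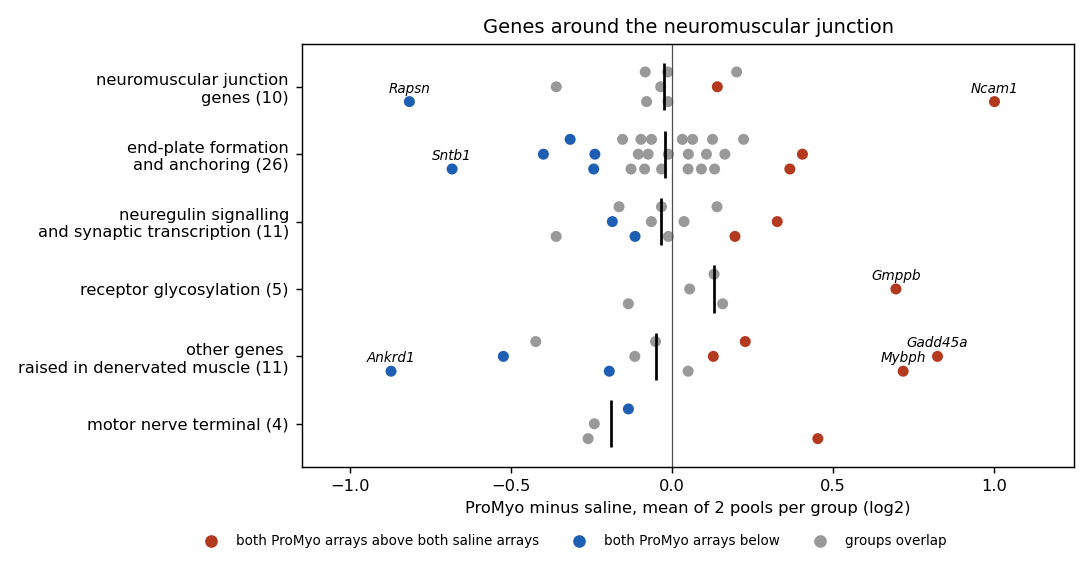
Difference of ProMyo minus saline (log2, mean of 2 pools per group) for the 10 neuromuscular junction genes and the measured genes of 5 further lists (number in brackets), with a black bar at each median. Red marks genes whose ProMyo arrays both lay above both saline arrays, blue the reverse and grey an overlap, and genes past 1.5-fold on average are named.

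Markers of several cell types, of which only some make Ncam1, are given here, and their part in the Ncam1 difference was not tested. Of the Schwann cell markers, 7 of 11 were measured and 4 of them were above background on all arrays. Their summed level, which is read only between arrays and follows the brightest probe set, that of Pmp22, was 7.20 and 7.03 (log2) with ProMyo against 7.20 and 7.35 with saline. Mbp, a myelin protein, read 2.60 and 2.14 with ProMyo against 3.12 and 3.16 with saline, the largest difference of the 7 genes. Sox10 and S100b, also above background on all arrays, stood at 0.05 and -0.14, each with opposite signs in the pools. Ngfr stood at 0.21, with a tie of 3 arrays and a saline 5-8 value of 0.38 within the background, and Mag was within the background. Of these 7 genes none was higher and 2 were lower in both ProMyo arrays. These were Mbp and Cadm4, and Cadm4 was above background on 1 array only. Of the 7 satellite cell markers 6 were measured, all above background on every array. The summed level of all 7 was 7.18 and 7.37 with ProMyo against 7.43 and 7.33 with saline. This sum followed its brightest probe set, that of Sdc4, which read 6.43 and 6.79 against 6.75 and 6.67. Pax7 and Myf5 had little weight in it. The defining marker Pax7 read 1.95 and 1.97 against 2.03 and 1.71, so the groups overlapped, and Calcr was under the filter. Of the 6 markers of regenerating or embryonic fibres 4 were measured. All 6 together summed to 7.14 and 7.56 with ProMyo against 5.87 and 6.54 with saline. This sum followed its brightest probe set, that of Actc1, the cardiac actin, with a difference of 1.30. The embryonic myosin Myh3 went the other way with -0.40, and Mymk and Mymx, the fusogens of forming fibres, were under the filter. Among 6 macrophage markers 3 were lower in both ProMyo arrays and none higher, and among 9 fibroblast and tendon markers 5 were lower and 1 higher. Of the 4 endothelial markers 1 was higher and none lower, and of 10 muscle fibre markers 5 were higher and 1 lower. Of all genes, 17.8% were so higher and 15.7% so lower. No gene of these lists passed the test in limma.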

How the data were processed

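Expression in 4 arrays, 2 per group, was read from the deposited table of log2 values, which the authors made by RMA; the submitters' processing notes name Expression Console from Affymetrix. The log base is not stated there, and log2 was read from the range of -0.45 to 13.2. No further normalization was applied. Of 45101 probe sets, 34958 had 1 symbol, 932 several and 9211 none, and the 64 array controls were left out. Symbols were looked up in RefSeq (GRCm38.p6), with 34754 matched and 0 changed. The brightest probe set stood for a gene, after removal of those whose mean lay under the 25th percentile (0.45).

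Groups were compared with limma 3.58.1 under R 4.3.3 (lmFit, then eBayes with no trend, all 4 arrays, no pairing, 2 residual and 3.16 prior degrees of freedom) with Benjamini-Hochberg adjustment over 15102 genes and a threshold of 0.05. The 8 mice gave both muscles, per the labels' protocols, and each ProMyo pool shares its animal numbers with a saline pool, which pairs them. The deviations of same-numbered pools correlated with r = 0.158 across genes. The paired fit is an alternative. Arrays have no read depth, and their number limits the precision. P-values measure the spread between pools of 4 animals.

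The members, lists and rules were chosen with earlier results of these data known. Named genes were the 10 members and, in each list, up to 3 with the largest difference of the same sign in both pools, beside genes named for their role. Some list genes were not analysed here. Alternatives were the pool as a block, other filters, quantile normalization, median-centred arrays, the mean of the probe sets, every probe set, a variance trend, other fold limits, leaving out each array and, added after the data were seen, the other probe sets of a member.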

Additional observations from a re-analysis of the deposited data

How the results depend on the processing

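No member was called by limma under any alternative that was run. With the paired pools as a replicate block, 0 members and 0 of all genes were called (Ncam1 and Rapsn at an adjusted p of 0.681), so the block changed no call. The count of 2 members at least 1.5-fold apart in both pools became 1 with median-centred arrays (Ncam1 left), 1 with the mean of the probe sets (Rapsn left) and 0 at a 2-fold limit, and ranged from 1 to 2 with an array left out (1, Rapsn, without the ProMyo 5-8 or the saline 1-4 array). The median difference of the members ranged from -0.11 without the saline 5-8 array to 0.12 without the saline 1-4 array. Of 85 member values under alternatives, 71 kept direction and side of the threshold, 13 changed sign and 1, Chrne without the saline 5-8 array, became 0. Some of the 71 could not change direction. The block leaves every group difference as it was. The mean of the probe sets does so for members with 1 probe set above the filter. The side of the threshold says little, since no gene at all came near it in the main fit (limma, smallest adjusted p = 0.822). The 71 are therefore no measure of stability. Ncam1 was -0.011 with the mean of its probe sets and -0.56, -0.62 and -0.32 at its probe sets 2, 3 and 5 in order of brightness. With an array left out, the differences ranged from -0.14 to 0.12 for Chrng, -0.069 to 0.043 for Chrnb1, -0.30 to 0.13 for Dok7, -0.51 to 0.44 for Lrp4 and -0.074 to 0.48 for Musk. The cause was not tested. Rapsn lay between -1.04 and -0.59 under every alternative run. Because of its tie, leaving out either ProMyo array could not move it from -0.82. Neither could the block or, with 1 probe set, the mean of the probe sets. With 2 arrays per group, differences had a median standard error of 0.19, and intervals of single genes allow changes that limma could not call.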
